A study of Mus musculus with 2 samples.

Results

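The genes described here encode the acid-producing pump, the proteases and the membrane proteins of the lysosome and the core machinery of autophagy. They were the entries of the deposited gene activity table whose symbol began with Atg and a digit or with Atp6v0 or Atp6v1, the Cts genes (cathepsins), the Lamp genes, and Sqstm1, Becn1, Ulk1, Ulk2, Tfeb, Tfe3 and Map1lc3b. They came to 84 of the 24165 entries, and to 75 of the 20128 gene symbols. An entry is 1 RefSeq transcript, so that a gene can have several. The rule reads the symbol and no measured value.

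The lysosome is an acidic organelle in which proteins, lipids and sugars are broken down. Its acid comes from the V-ATPase, a rotary proton pump with a cytosolic ATP-hydrolysing part (V1) and a proton-conducting part in the membrane (V0). Autophagy delivers cytoplasm to it inside a vesicle that forms under the control of the Ulk kinases and the Becn1 lipid kinase complex and that is decorated with LC3-family proteins. Tfeb and Tfe3 are transcription factors that can activate many of these genes together, through a site known as the CLEAR element with the letters CACGTG at its core. In muscle, lysosomes and autophagy clear worn organelles and take part in protein loss during wasting.

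The study measured nascent transcription by GRO-seq, in which engaged RNA polymerases extend their transcripts by a short run-on in isolated nuclei and the labelled RNA is sequenced. The cells were C2C12, an established mouse myoblast line, with no treatment, no genetic change and no second condition, collected as nuclei from 4 plates at 80% confluency for each isolation. The 2 libraries of this single group were replicates, and the authors pooled them before gene activity was computed. Gene activity was the density of sense-strand reads over the gene body, from 1 kb past the start to the end of the gene, per mappable kilobase, scaled to the number of reads sequenced (RPKmM). An entry was listed as Inactive where that density did not pass the authors' comparison with gene deserts. Each entry thus had 1 value with no replicate error, no statistical test was possible, and the values below are descriptions of 1 pooled line. Differences between genes are given as ratios of 2 pooled values, and the table gives neither the reads behind a value nor the mappable length of the gene, so that no counting error can be attached. In a bulk value, a few cells that transcribe a gene strongly and many that transcribe it weakly cannot be told apart.

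Of all entries, 16957 were active, with a median of 0.87 RPKmM, quartiles of 0.22 and 1.99 and a 90th percentile of 4.11. The label of the cells was set against marker genes. All 8 myoblast markers were active, from 0.04 for Cav3 to 72.45 for Des, with Myod1 at 2.39 and Myf5 at 5.03. Of 10 macrophage and osteoclast markers, 9 were inactive, among them Ptprc, Csf1r and Acp5, and Cd74 stood at 0.02. Of 4 endothelial markers, Cdh5 and Kdr were inactive, and Pecam1 and Tek each stood at 0.01.

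Among the lysosome and autophagy entries, 65 of 84 were active (77.4%), against 70.2% of all entries. Among coding entries, 64 of 83 members were active (77.1%), against 73.2% of all coding entries. Counted by gene, 56 of 75 had an active entry (74.7%), against 68.7% of all symbols. The median of the active members was 0.90 RPKmM, 1.03 times that of all other active entries, with quartiles of 0.53 and 2.97 and a range from 0 to 19.4. The typical member thus had a value close to that of the typical active gene, but the ratio depended on low and inactive entries. It was 1.56 between geometric means with a pseudocount of 0.01, 2.42 with inactive entries counted as 0, and 0.836 among entries of at least 0.1 RPKmM. Above the upper quartile of all active entries lay 19 of 65 members, against 25% of all. The upper tail differed little from the background in count, with 9 of 65 members (13.8%) above the 90th percentile of all active entries, against 9.99% of all. Fewer members lay at the bottom, with 7 of 65 (10.8%) under 0.1 RPKmM against 18.5% of all. The plot of activity by role shows an even autophagy group, a V-ATPase group of moderate values, and cathepsins that fell into a high and a low set.

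**Figure D1:**
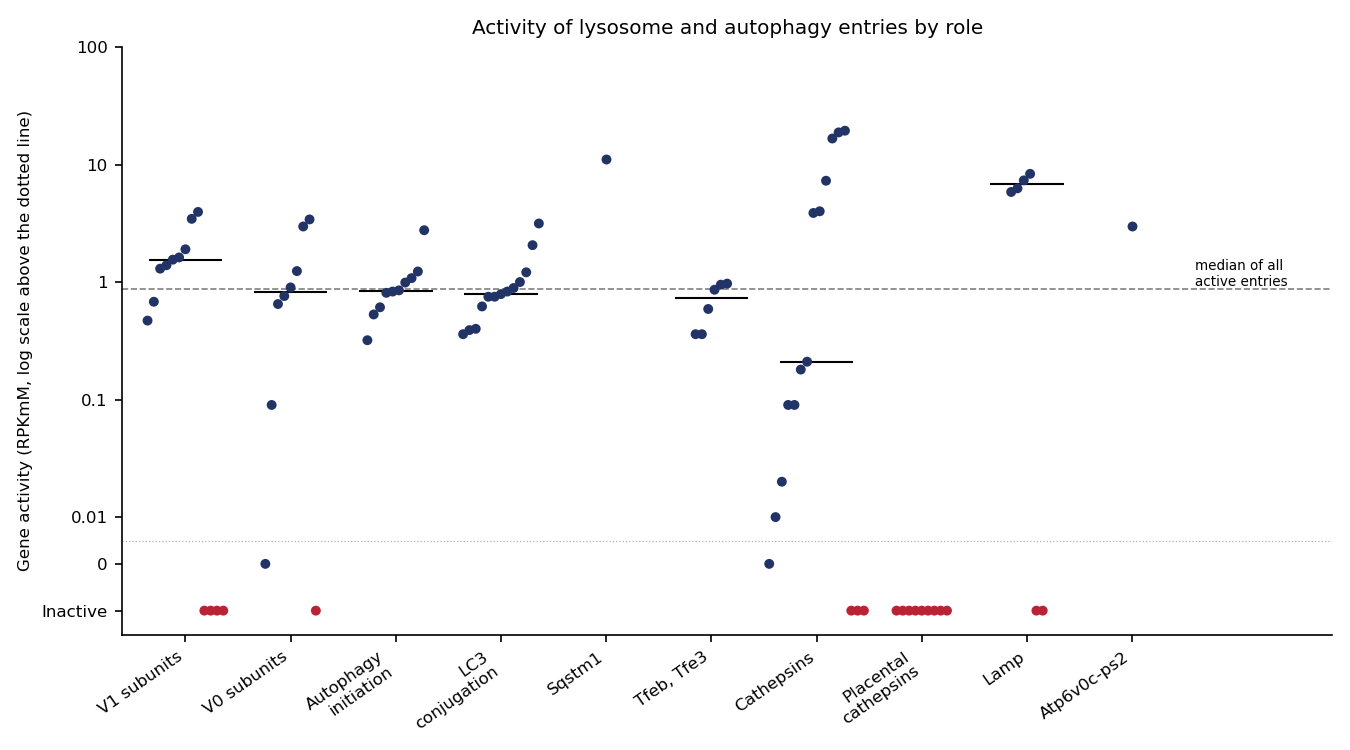
Gene activity in RPKmM (log scale above the dotted line) of each lysosome and autophagy entry by role. Each blue point is 1 active RefSeq entry, each red point 1 inactive entry, short bars are medians of the active entries, and the dashed line is the median of all active entries (0.87). The 4 active Lamp entries and Sqstm1 lie above 5 RPKmM, the active cathepsins run from 0 to 19.4, and all 9 placental cathepsins are inactive.

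**Figure D2:**
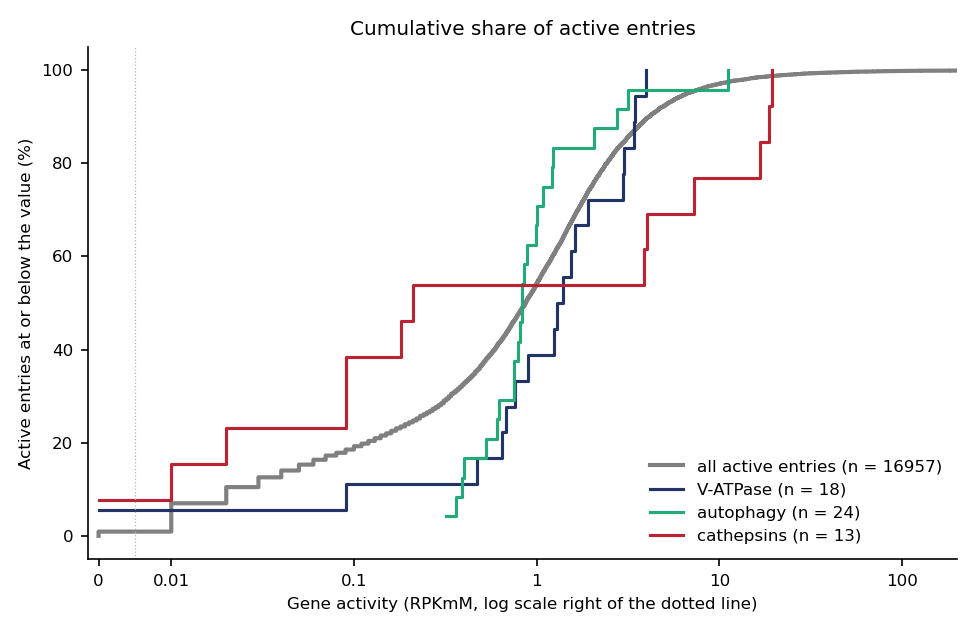
Cumulative share of active entries (%) at or below each gene activity (RPKmM, log scale right of the dotted line) for all active entries, the V-ATPase, the autophagy genes and the cathepsins. The autophagy curve climbs steeply around its median of 0.83, the V-ATPase curve starts to the left of it with entries at 0 and 0.09, crosses it and ends at 3.95, and the cathepsin curve is flat between 0.21 and 3.87.

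The promoters were examined for the CLEAR core because many of these genes are known targets of Tfeb and Tfe3, both of which were active here. RefSeq promoter windows (build GRCm38.p6, 250 bases before to 50 after the start) were matched for 61 of the 75 genes, with 71 promoters in all. No window was matched for Atp6v0a2, Atg12, Ctsb, Atp6v1c1, Atp6v0d2, Atp6v0c-ps2, Becn1, Ctsh, Ctse, Atg16l1, Atp6v1g1, Atp6v1b2, Atp6v1h or Ctsw. The letters CACGTG, which read the same on both strands, were present in 14 of the 61 genes (23%), against 9.95% of the 15199 genes of the activity table with a window. The longer form TCACGTGA, each copy of which contains a CACGTG, was present in 6 of 61 (9.84%), against 1.58%. The stretches below, 5′ to 3′ on the strand of the gene, are shown because they hold these letters in active lysosomal and autophagy genes. They run at most 30 bases to each side of the sites, and capitals mark CACGTG, with its flanking T and A where the longer form is present.

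The cathepsin and Lamp stretches came from genes among the most active members. That of Ctsa lay at chr2:164833730-164833802 on the plus strand, that of Ctsd at chr7:142387889-142388077 on the minus strand and that of Lamp1 at chr8:13159070-13159181 on the plus strand.
Ctsa: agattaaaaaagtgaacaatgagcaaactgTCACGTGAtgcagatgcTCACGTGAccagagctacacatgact
Ctsd: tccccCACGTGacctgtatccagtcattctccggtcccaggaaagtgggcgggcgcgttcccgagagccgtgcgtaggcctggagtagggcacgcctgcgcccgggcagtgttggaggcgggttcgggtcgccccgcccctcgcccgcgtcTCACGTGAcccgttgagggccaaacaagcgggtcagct
Lamp1: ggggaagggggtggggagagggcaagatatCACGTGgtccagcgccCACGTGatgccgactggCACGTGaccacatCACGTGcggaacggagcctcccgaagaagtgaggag

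Ctsa, at 18.76 RPKmM, had 2 copies of TCACGTGA, starting 13 bases before and at base 5 after its start. Ctsd, at 7.28, had 1 copy of the longer form at 99 bases before the start and a second core at 245 bases before it. Lamp1, at 8.33, had 4 cores within 61 bases of its start, none of them in the longer form. Windows with at least 4 cores were found for 5 of the 15199 genes, a comparison made after the 4 sites of Lamp1 were seen. Ctsa had a second annotated start, and its window there held no core. The windows of Sqstm1 (11.18), Lamp2 (highest entry 7.33), Ctsz (4) and Atp6v1e1 (3.95) held no core either. That of Ctsf, a cathepsin with a low activity of 0.09, held 1.

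The V-ATPase and autophagy stretches are given for the pump subunits with a core and for Atg3. Among the autophagy member genes with a window, Atg3 alone held the longer form. That of Atp6v1a lay at chr16:44139354-44139421 on the minus strand, that of Atp6v0d1 at chr8:105566035-105566098 on the minus strand and that of Atp6v0e at chr17:26676368-26676425 on the plus strand. That of Atp6v0b lay at chr4:117887312-117887395 on the minus strand, and that of Atg3 at chr16:45158705-45158794 on the plus strand.
Atp6v1a: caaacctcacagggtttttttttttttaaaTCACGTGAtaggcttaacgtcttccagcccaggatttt
Atp6v0d1: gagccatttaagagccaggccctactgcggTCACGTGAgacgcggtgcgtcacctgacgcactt
Atp6v0e: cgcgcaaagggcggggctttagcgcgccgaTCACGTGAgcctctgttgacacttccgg
Atp6v0b: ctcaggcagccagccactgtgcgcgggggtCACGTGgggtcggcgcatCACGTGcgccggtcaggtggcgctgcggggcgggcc
Atg3: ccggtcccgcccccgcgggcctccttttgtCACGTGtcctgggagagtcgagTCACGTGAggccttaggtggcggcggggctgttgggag

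The 3 subunits with a single longer form had activities of 1.39 for Atp6v1a, 0.65 for Atp6v0d1 and 1.24 for Atp6v0e. Atp6v0b, with 2 cores and no longer form, stood at 3.41, and Atg3, with 2 cores of which 1 was in the longer form, at 2.06. The copies in Atp6v0d1 and Atp6v0e lay at the start itself, the one in Atp6v1a 132 bases before it. A core was also found for Atg5, Atg14, Atg7, Ctsf, Ctsl and Ctsll3, whose activities ranged from inactive to 19.4. The RefSeq start used for Atg7 lay 27967 bases downstream of the nearest start in GENCODE on mm9, inside the gene.

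The share of genes with the core was higher among active than among inactive genes, in the members as in the whole table. It was found in 13 of 44 active member genes (29.5%) and 1 of 17 inactive ones (5.88%), the latter being Ctsll3. Over all genes the shares were 11.4% of active and 6.79% of inactive genes. CACGTG itself holds a CpG, and active member genes had a median of 18 CpG against 2 in inactive ones. Over all genes these medians were 20 and 5, and the part of base composition in the shares was not tested. Of the 17 inactive member genes with a window, 9 were placental cathepsins, with 0 to 3 CpG each. Among the other lysosome and autophagy genes listed for comparison, 21 of 87 (24.1%) held a core and 7 (8.05%) the longer form. A match of letters is a description of the sequence, and binding by any factor was not measured.

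The V1 part of the pump was transcribed through 1 main gene for each subunit. Of 13 V1 genes, 9 were active (69.2%, against 68.7% of all symbols), with a median of 1.55 RPKmM, a range of 0.47 to 3.95, and 7 of 9 above the median of all active entries, against 49.7% of all. The catalytic head is built from subunits A and B. Atp6v1a, which encodes A, stood at 1.39, and Atp6v1b2, the widely expressed form of B, at 1.62. Atp6v1b1, the form of kidney and inner ear, was inactive.

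The peripheral stalks, which hold the head in place, are made of subunits C, E and G. Atp6v1e1 had the highest value of the V-ATPase at 3.95, and Atp6v1c1 followed at 3.45. Their counterparts Atp6v1e2, known from testis, and Atp6v1c2, known from lung and kidney, were inactive. Subunit G was the exception with 2 active forms, Atp6v1g1 at 1.30 and Atp6v1g2, known from brain, at 0.47, a 2.77-fold difference. Atp6v1g3 was inactive. The central rotor and the regulatory subunit had 1 gene each, with Atp6v1d at 0.68, Atp6v1f at 1.55 and Atp6v1h at 1.90. Subunits that sit in the same complex thus differed, by 5.07 times between Atp6v1c1 and Atp6v1d and by 2.84 times between Atp6v1e1 and Atp6v1a.

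The V0 genes, which form the proton channel, had 8 of 9 active (88.9%, against 68.7% of all symbols), with a median of 0.83 RPKmM and a range of 0 to 3.41. The highest were the proteolipids of the rotating ring, Atp6v0b at 3.41 and Atp6v0c at 2.97. Atp6v0e, a small membrane subunit, stood at 1.24, and its paralogue Atp6v0e2 at 0.09, which was 13.8 times lower. Atp6v0d1, which couples the ring to the rotor, stood at 0.65, and Atp6v0d2, known from osteoclasts, was inactive.

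Subunit a, which lines the path of the protons and helps to direct the pump to its membrane, is encoded by 4 genes, of which the symbol rule took 3. Atp6v0a2 stood at 0.90 and Atp6v0a1 at 0.76, and Atp6v0a4, the kidney form, was called active with a listed value of 0. The other gene of the family, Tcirg1 (subunit a3), had entries of 4.86, 5.10 and 5.49 and was the highest of the family, 6.10 times above Atp6v0a2. Tcirg1 is best known from osteoclasts, and the osteoclast markers Acp5, Calcr, Ocstamp and Dcstamp were inactive in the same table. The plot of related genes shows this pattern of 1 leading gene and 1 inactive or low paralogue for subunits B, C, E, d and e.

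**Figure D3:**
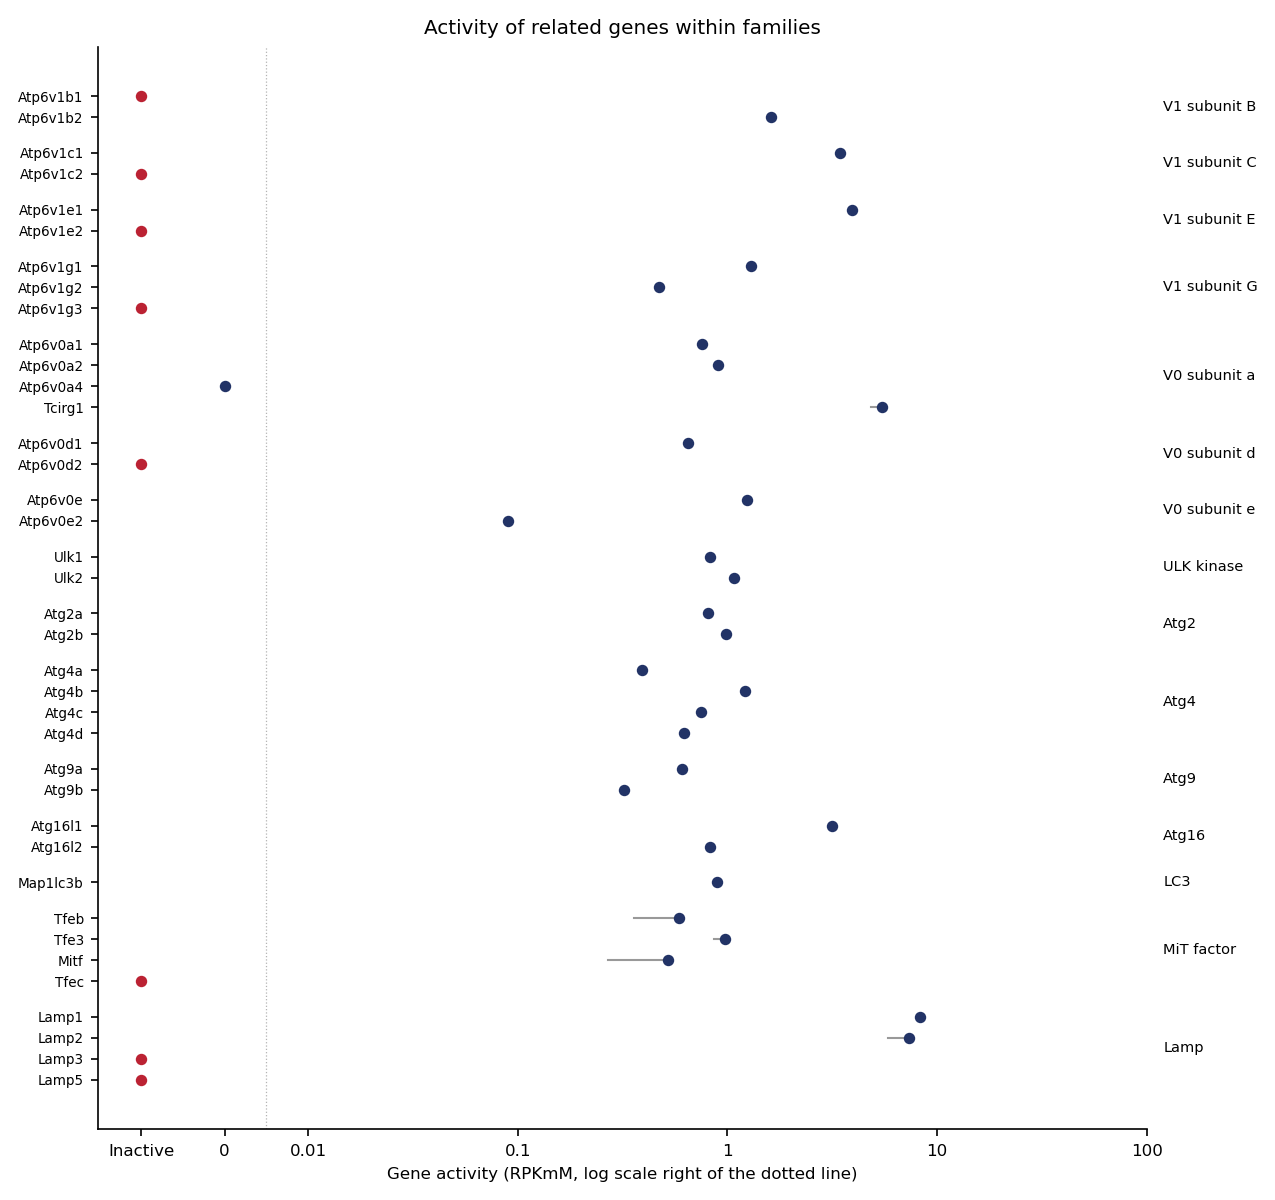
Gene activity (RPKmM, log scale right of the dotted line) of related genes, grouped by family. Points are the highest entry of each gene, grey lines reach to its lowest entry, and red points are inactive genes. Subunits B, C, E and d of the V-ATPase have 1 active and 1 inactive gene each, and all genes of the Ulk, Atg2, Atg4, Atg9 and Atg16 families are active.

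The remaining V-ATPase entry was Atp6v0c-ps2, annotated as a pseudogene of Atp6v0c, with a listed 3 RPKmM against 2.97 for the parent gene. Its span in GENCODE was 468 bases, below the authors' minimum of 2 kb, so the locus behind the entry is uncertain, and reads of the 2 copies may not be separable. With it, 18 of 23 V-ATPase entries were active (78.3%, against 70.2% of all entries) with a median of 1.34 RPKmM. Without it, the counts were 17 of 22 (77.3%) with a median of 1.30.

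The autophagy genes were all active and lay close together. All 23 genes, with 24 entries, were active, against 68.7% of all symbols, with a median of 0.83 RPKmM and a range of 0.32 to 11.18. Of the 24 entries, 10 (41.7%) were above the median of all active entries, against 49.7% of all. None was under 0.1, against 18.5% of all. Sqstm1 was the outlying member, and without it the highest value was 3.15.

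Initiation and membrane supply comprised 10 genes, with a median of 0.84 and a range of 0.32 to 2.76. The Ulk kinases, which start the process, stood at 0.83 (Ulk1) and 1.08 (Ulk2), a ratio of 1.30. Their partners Atg13 and Atg101 stood at 0.53 and 1.23. Becn1, the scaffold of the lipid kinase complex, was the highest of the group at 2.76, and Atg14, which directs that complex to autophagy, stood at 0.85, a 3.25-fold difference. Atg9a, a lipid scramblase carried on vesicles, stood at 0.61 and its paralogue Atg9b at 0.32, the lowest of the group. The lipid transfer proteins Atg2a and Atg2b stood at 0.81 and 0.99.

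LC3 conjugation, the ubiquitin-like system that attaches LC3 to the growing membrane, comprised 12 genes with 13 active entries, a median of 0.79 and a range of 0.36 to 3.15. Atg16l1, which places the conjugation machinery on the membrane, was the highest at 3.15, and its paralogue Atg16l2 stood at 0.83. A small nuclear RNA gene, Scarna6, lies inside Atg16l1 on the same strand, and its part in the value was not tested. The conjugating enzyme of LC3, Atg3, stood at 2.06. Atg7, the activating enzyme upstream of it, had the lowest value at 0.36, which was 8.75 times below Atg16l1. Atg10, the conjugating enzyme of Atg12, stood at 0.40, Atg12 itself at 0.79 and its partner Atg5 at 1.00.

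Atg7 and Atg10 were the longest genes of the system, spanning 217283 and 288639 bases in GENCODE. Atg4a was the next longest at 107368 bases, and these genes also had the lowest values of the system. Whether length had a part in these values was not tested. Over the 56 active member genes of all roles, the pseudogene included, Spearman rho between activity and span was −0.12, and over 12380 active genes −0.03. Both describe genes that share 1 pooled measurement, and neither was computed for this system alone. The Atg4 proteases, which prepare LC3 and later release it, were active as a family of 4, with Atg4b at 1.21, Atg4c at 0.75 in both entries, Atg4d at 0.62 and Atg4a at 0.39. Atg4b was thus 3.10 times above Atg4a. Map1lc3b, which encodes the LC3B protein, stood at 0.89, where 50.6% of all active entries were lower. Another annotated gene, Gm20388, overlaps it on the same strand, and its part in the value was not tested. Map1lc3a was not analysed here.

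Sqstm1 encodes p62, the receptor that links ubiquitin-tagged cargo to LC3 and is itself degraded with it. Its 11.18 RPKmM was above 97.5% of all active entries and 12.6 times the value of Map1lc3b.

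The transcription factors Tfeb and Tfe3 were active at moderate levels. Tfe3 had entries of 0.86, 0.95 and 0.97, with 49.5% to 53.0% of all active entries below them. Tfeb had entries of 0.36, 0.36 and 0.59, with 30.8% to 39.9% below, and its entries, which overlap and are not replicates, differed by 1.64 times. The highest entries of both genes differed by 1.64 times as well, about as much as the Tfeb entries among themselves. Of the other factors of the family, Mitf had entries between 0.27 and 0.52, and Tfec was inactive.

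The cathepsins were the most divided group. Outside the placental genes, 11 of 14 genes were active (against 68.7% of all symbols), with 13 entries, and their median of 0.21 RPKmM stood for almost no gene, since 6 entries lay at 3.87 or above and 7 at 0.21 or below. Among the 13 entries, 4 (30.8%) were above the 90th percentile of all active entries, against 9.99% of all, and 5 (38.5%) were under 0.1, against 18.5% of all.

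The high set held Ctsl, Ctsa, Ctsd, Ctsz and Ctsb. Ctsl, a cysteine protease, had the highest value of all 65 active members at 19.4, above 98.8% of all active entries. Ctsa, a carboxypeptidase that also protects other lysosomal enzymes, had entries of 16.65 and 18.76. Ctsd, the main aspartic protease of the lysosome, stood at 7.28, with another annotated gene, 6330512M04Rik, overlapping it on the same strand, whose part in the value was not tested. Ctsz and Ctsb, a pair of cysteine proteases with exopeptidase activity, stood at 4 and 3.87.

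The low set held proteases known from restricted cell types together with some broader ones. Ctso stood at 0.21 and Ctsw, known from cytotoxic lymphocytes, at 0.18. Ctsk, the collagen-degrading protease of osteoclasts, stood at 0.09, which was 216 times below Ctsl, and Ctsf also at 0.09. Ctsk begins 2046 bases past the end of Arnt, an active gene (2.11) on the same strand, and the part of transcription from Arnt in its value was not tested. Ctsh, an aminopeptidase, stood at 0.02, and Ctsc, which activates granule proteases of immune cells, was listed at 0.01 and 0. Ctse, Ctsg and Ctss, known from stomach and immune cells, neutrophils, and antigen-presenting cells, were inactive. These low values are close to the rounding step of 0.01 of the table, so that ratios among them carry little precision.

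All 9 placental cathepsins, a rodent family of Ctsl relatives expressed in the placenta, were inactive, where 68.7% of all symbols were active. Cts3, Cts6, Cts7, Cts8, Ctsj, Ctsll3, Ctsm, Ctsq and Ctsr lie next to each other on chromosome 13, so that this chromosome held 11 member genes, of which 9 were inactive. In mm9 the cluster runs from Ctsll3, which starts the cluster at position 60899611, to Cts3, which ends at 61671426, over 772 kb. Of 14 annotated genes in it that matched the table by name, 3 were active, namely Ctla2a at 0.71, Ctla2b at 0.51 and 4930486L24Rik at 0.05. Ctla2a and Ctla2b are themselves related to the propeptide of cathepsins. The other two, Tpbpa and Tpbpb, are placental genes and were inactive.

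Ctsl lies on the same chromosome and strand at 64464522 to 64471614. Between the cluster and Ctsl, 2793 kb held 17 genes matched by name, of which 14 were active, up to 14.32 for 2010111I01Rik, beside the same 68.7% of all symbols. The starts of Cts3 and Ctsl were 2800 kb apart. The map of the region shows the inactive cathepsins on the left and active genes at intermediate positions.

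**Figure D4:**
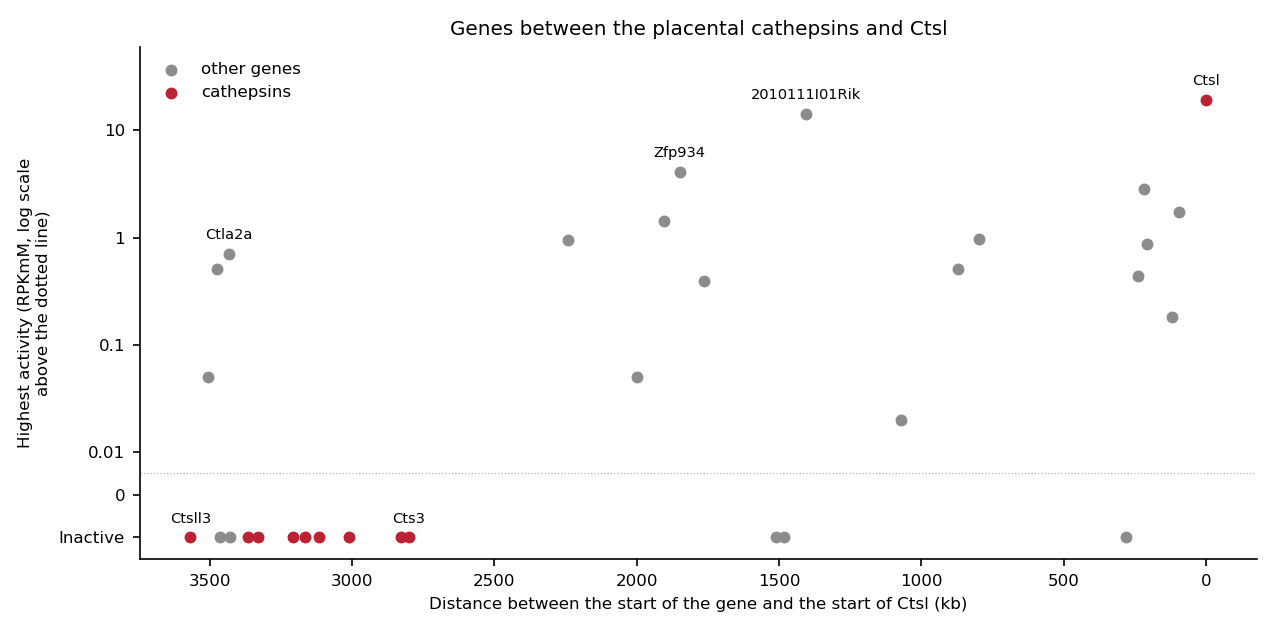
Highest gene activity (RPKmM, log scale above the dotted line) of genes on chromosome 13 against the distance (kb) between the start of each gene and that of Ctsl. Red points are cathepsins and grey points other genes matched by name between the table and GENCODE. The 9 placental cathepsins are inactive, 14 of the 17 genes between them and Ctsl are active, and Ctsl stands at 19.4.

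To show how the sequence differs between the ubiquitous protease and its placental relatives, the 250 bases before the start of Ctsl (chr13:64370521-64370770 on the minus strand) and of Ctsj (chr13:61005926-61006175 on the minus strand) are printed with each CpG in capitals. The RefSeq start of Ctsl used here lies 214 bases upstream of the start in GENCODE.
Ctsl: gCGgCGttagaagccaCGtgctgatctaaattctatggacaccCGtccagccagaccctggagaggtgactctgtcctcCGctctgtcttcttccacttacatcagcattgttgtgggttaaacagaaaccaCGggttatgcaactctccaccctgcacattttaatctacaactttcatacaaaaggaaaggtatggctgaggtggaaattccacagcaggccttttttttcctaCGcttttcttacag
Ctsj: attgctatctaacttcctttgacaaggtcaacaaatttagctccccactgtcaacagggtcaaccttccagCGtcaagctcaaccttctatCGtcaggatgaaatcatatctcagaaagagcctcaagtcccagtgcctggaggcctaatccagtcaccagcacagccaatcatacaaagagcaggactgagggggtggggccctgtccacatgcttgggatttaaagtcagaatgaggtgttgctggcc

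The Ctsl stretch has 7 CpG and that of Ctsj 2. In the whole 300-base windows, the placental cathepsins had a median of 1 CpG and a range of 0 to 3, and Ctsl had 10. Ctsll3, the one placental gene with a core, had it 13 bases before its start, in the stretch at chr13:60802822-60802887 on the minus strand, given here as the one core found in an inactive member gene.
Ctsll3: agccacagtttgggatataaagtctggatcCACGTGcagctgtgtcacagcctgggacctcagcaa

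The number of CpG in the window also differed between active and inactive members. The 44 active genes with a window had a median of 18 CpG (quartiles 11.4 and 24.5) and 59.5% GC, and the 17 inactive genes a median of 2 (quartiles 1 and 3) and 46.7% GC. The 8 inactive genes outside the placental group had a median of 4 and a range of 0 to 22. The same direction held over the whole table, with a median of 20 CpG for 10513 active genes and 5 for 4686 inactive ones. Atp6v1c2 was the inactive gene with 22 CpG, and the lowest counts among active members included 1 CpG in Atp6v0a4, which was listed at 0.

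**Figure D5:**
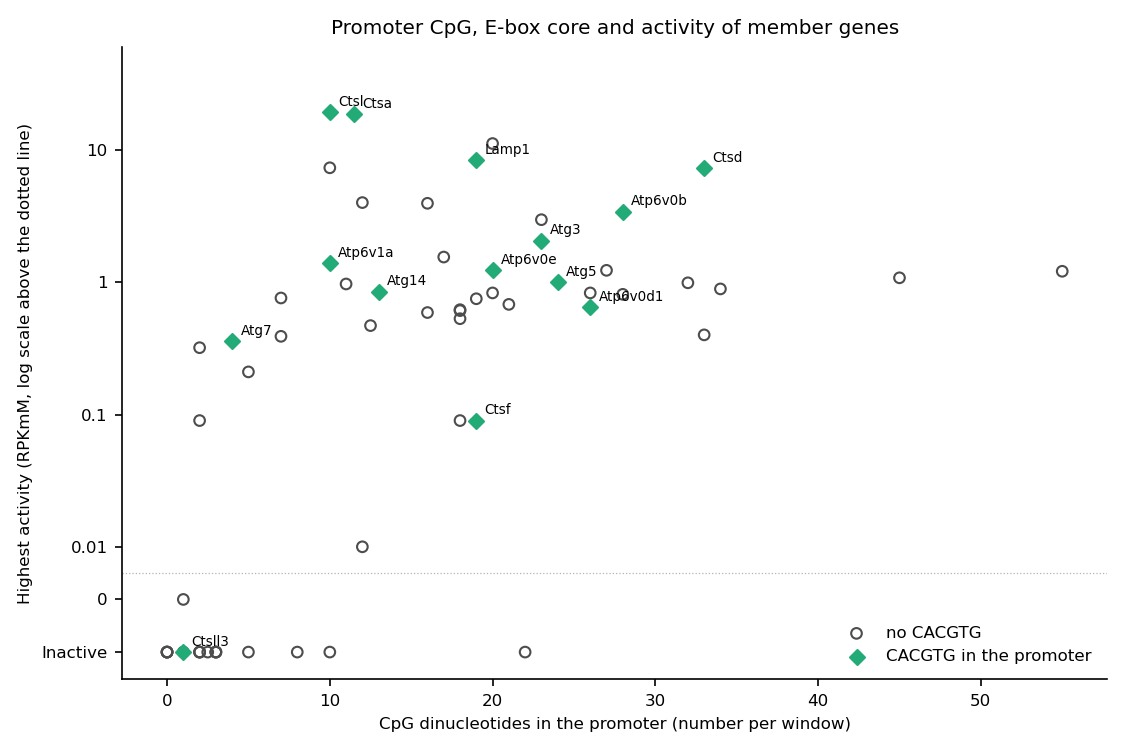
Highest gene activity (RPKmM, log scale above the dotted line) of each member gene against the number of CpG dinucleotides in its 300-base promoter window (mean over windows where a gene has several). Green diamonds are genes with CACGTG in a window and open circles genes without. Of the 17 inactive genes, 16 have 10 CpG or fewer, and genes with the core span the range from inactive to 19.4.

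The Lamp proteins, heavily glycosylated proteins that line the inner face of the lysosomal membrane, divided by gene. Lamp1 stood at 8.33, and Lamp2, which also serves as receptor for chaperone-mediated autophagy, had entries of 5.84, 6.27 and 7.33. All 4 entries were above the 90th percentile of all active entries, and Lamp1 and the highest Lamp2 entry differed by 1.14 times, less than the Lamp2 entries among themselves (1.26 times). Lamp3, known from mature dendritic cells, and Lamp5, known from neurons, were inactive. Lamp4 was not analysed here.

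Other genes of the same pathways, taken as 4 lists chosen with earlier results of these data known, were nearly all active. Of 106 genes, 103 had an active entry, against 68.7% of all symbols, and the 120 active entries had a median of 1.34 RPKmM, with 80 (66.7%) above the median of all, against 49.7%. The lysosomal hydrolases and their activators, 33 of 33 genes active, had a median of 1.15 RPKmM, led by Psap (7.86 and 10.54), the precursor of the sphingolipid activators, Tpp1 (3.86) and Asah1 (3.29). Membrane and sorting proteins, 23 of 24 active, had the highest median at 1.78, led by the sterol carrier Npc2 (32.38), the tetraspanin Cd63 (17.35 to 21.5) and Atp6ap1, an accessory subunit of the pump (9.64). Laptm5, known from blood cells, was the inactive gene there.

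Other autophagy proteins, 28 of 28 active, had a median of 1.47, led by the late endosome GTPase Rab7 (3.23 to 4.02), Wipi1 (3.11) and Tax1bp1 (2.61). The list of mTORC1, the nutrient-sensing kinase complex at the lysosomal surface, together with its regulators and the factors Mitf and Tfec, had 19 of 21 active and a median of 0.90, led by Rheb (3.08), Fnip1 (2.81) and Lamtor2 (2.04), with Rragb and Tfec inactive. Above the 90th percentile of all active entries lay 10 of 29 membrane and sorting entries (34.5%) and 2 of 34 hydrolase entries (5.88%), both of Psap, against 9.99% of all. In the autophagy genes of both sets, Sqstm1 was the one value above the 90th percentile of all active entries.

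Several RefSeq entries were present for 6 of the 75 genes. The entries of Atg4c, Ctsa, Lamp2 and Tfe3 were within 1.5 times of each other, Tfeb exceeded that, and Ctsc was at 0 and 0.01. No gene had both an active and an inactive entry. Some values may include reads of a neighbour on the same strand, whose part was not tested. Atp6v1f begins 5830 bases after Flnc (14.06), Atp6v0b 1310 bases after Dph2 (1.96), and Atp6v0c 5729 bases after Tbc1d24 (0.55). The antisense strand was not counted by the authors, so that overlapping genes on the other strand do not enter these values.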

How the data were processed

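GRO-seq libraries were made from nuclei of untreated C2C12 myoblasts (2 libraries, 1 group). The authors called bases with CASAVA 1.8, aligned reads to mm9 with Bowtie2, trimmed and realigned in repeated rounds those that had failed, kept a mapping quality of at least 40, removed reads in rRNA and tRNA repeats and pooled both libraries. The deposited gene activity, a density per mappable kilobase scaled to the reads sequenced (like RPKM, but over mappable bases only), covers genes of at least 2 kb on chromosomes 1 to 19 and X, rounded to 0.01, and entries not above gene deserts at a false discovery rate of 0.01 are listed as Inactive.

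Members, lists, motifs and families were chosen with earlier results of these data known. Values are given by name for the 3 highest and 3 lowest active members, the ends of each list, inactive members, genes whose entries differ by over 1.5 times, related families, Sqstm1, Becn1, Tfeb and Tfe3, and for other lists the 3 highest and the inactive genes. The remaining members are named as well. Counts, medians and ratios were computed with Python 3.11.15, pandas 2.3.3 and numpy 2.4.6. A separate check on simulated data covered a share, a median, a rank and a motif search. It did not run the code that gave the results. Spans and neighbours came from GENCODE vM1 on mm9, 70 genes matched by symbol and 5 by an older name. Promoters came from RefSeq on GRCm38.p6, and all 71 windows matched the mm9 genome exactly, 69 of them within 300 bases of a GENCODE start. Alternatives changed the unit counted, the call of active, the centre, the filter on low values and the entries kept. The table holds neither read counts nor mappable lengths per entry, so no counting interval is given.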

Additional observations from a re-analysis of the deposited data

How the results depend on the processing

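The share of active member entries was 77.4%, against 86.7% without the placental cathepsins and between 69.0% and 77.1% under the other alternatives. That of all entries was 70.2%, against 68.7% with 1 entry per symbol, 69.5% and 57.2% with an activity of at least 0.01 and 0.1, and 73.2% for coding entries. The median of active members stayed between 0.895 and 0.995 RPKmM, and their geometric mean was 0.946 or 1.11 with a pseudocount of 0.01 or 0.1. With inactive entries counted as 0, the median was 0.75 over all members and 0.31 over all entries. The median of active members was 1.03 times that of all other active entries. This ratio was 1.56 between geometric means with a pseudocount of 0.01 and 1.44 with 0.1. It was 2.42 with inactive entries as 0, and under 1, at 0.836, among entries of at least 0.1. So the members' centre was below, close to or above that of other genes, depending on how low and inactive entries were treated. The most active gene was the same in 16 of 16 families with lowest in place of highest entries. Entries of a gene differed only in the families of subunit a, of Tfeb and Tfe3, and of the Lamp proteins. In the other families the result was therefore fixed in advance. The alternative without the pseudogene was chosen after seeing the data. No paired analysis was possible because the libraries of the single group were pooled, and for the same reason no library could be left out. One pooled value per entry, with no read count beside it, and a step of 0.01 limit every low value.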
